A study of Mus musculus with 9 samples.

Results

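DNA replication and S-phase genes were examined on one-colour microarrays of mouse lung. The list of 39 genes was given by name and holds the genes of the replication machinery and of entry into S phase. Each gene was found on the arrays and was represented by its brightest probe, the one with the highest mean log2 signal over all 9 arrays. They were 39 of 19698 genes tested. All mice were C57BL/6 males, labelled as 10 weeks old, and all arrays held RNA of lung tissue. The 4 control arrays held lung of mice that were not irradiated, and the 5 irradiated arrays held tissue of the irradiated left lung. Anaesthesia with zoletil and rompun was given during irradiation, and the labels of the control arrays carry the same text, so whether control mice received it is not known. Neither a dose, a lung region nor a time after irradiation is given in the labels, so the 5 irradiated arrays can differ in each of these, and their numbers carry no order. Per the study's methods, RNA of triplicate experiments was pooled before labelling, so an array is a pool and hides the spread between single mice. Nothing in the labels says that pools of 1 group came from separate cohorts, and p-values measure only the spread between these arrays, which may be technical.

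Before a cell copies its DNA, the origin recognition complex, Cdc6 and Cdt1 load the MCM helicase onto origins in G1 phase. In S phase, Cdc45 and the GINS complex turn that helicase on, the polymerases copy both strands with the help of the sliding clamp PCNA and its loader RFC, and ribonucleotide reductase supplies deoxynucleotides. Most of these genes are transcribed in waves under E2F factors at the passage from G1 to S phase, and in the resting adult lung few cells are in S phase, so the transcripts are commonly read as a sign of how many cells are entering the cycle. In bulk RNA, fewer cells of a type and less RNA per cell cannot be told apart, and the same holds for more.

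In group means, the replication and S-phase genes lay somewhat higher on the irradiated arrays, but no single gene passed the test. Not every irradiated array shared this. The median deviation of the members from the control mean was 0.45, 0.40 and 0.27 on irradiated arrays 1 to 3, and 0.03 and -0.01 on arrays 4 and 5. The mean was higher in 31 of 39 members and lower in 8, and the median log2 difference between irradiated and control arrays was 0.22, against 0.0085 over all genes, of which 51.9% were higher. Limma called 0 of 39 members at a Benjamini-Hochberg adjusted p under 0.05, where 0.416% of all genes were called, and the smallest adjusted p of a member was 0.222. At an unadjusted p under 0.05 there were 8 members higher, where 7.37% of all genes were, and 2 lower, where 4.98% were; together they made up 25.6% of the list, against 12.3% of all genes. Differences ran from -0.37 to 0.82, none reached 2-fold, and Uhrf1, Gins2 and Cdc6 alone exceeded 1.5-fold. The 95% interval of the difference lay inside a 2-fold change in both directions for 33 members. Of the 39, 37 were well above background on all 9 arrays, and the median standard error of a difference was 0.16, against 0.18 over all genes. The count of unadjusted calls, 10 with all arrays, depended on single arrays and on the processing. It was 2 without control 4, 5 without irradiated 2 or without irradiated 3, and 17 without irradiated 5. In the authors' normalized table it was 2. With the scan pairs described below it was 16 as a fixed block and 18 as a random block. The share of all genes at this unadjusted p was not counted under these alternatives, so these counts have no background beside them. Over all genes, limma calls at an adjusted p under 0.05 rose as well, from 0.416% to 3.82% with the fixed block and 9.45% with the random block.

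**Figure D1:**
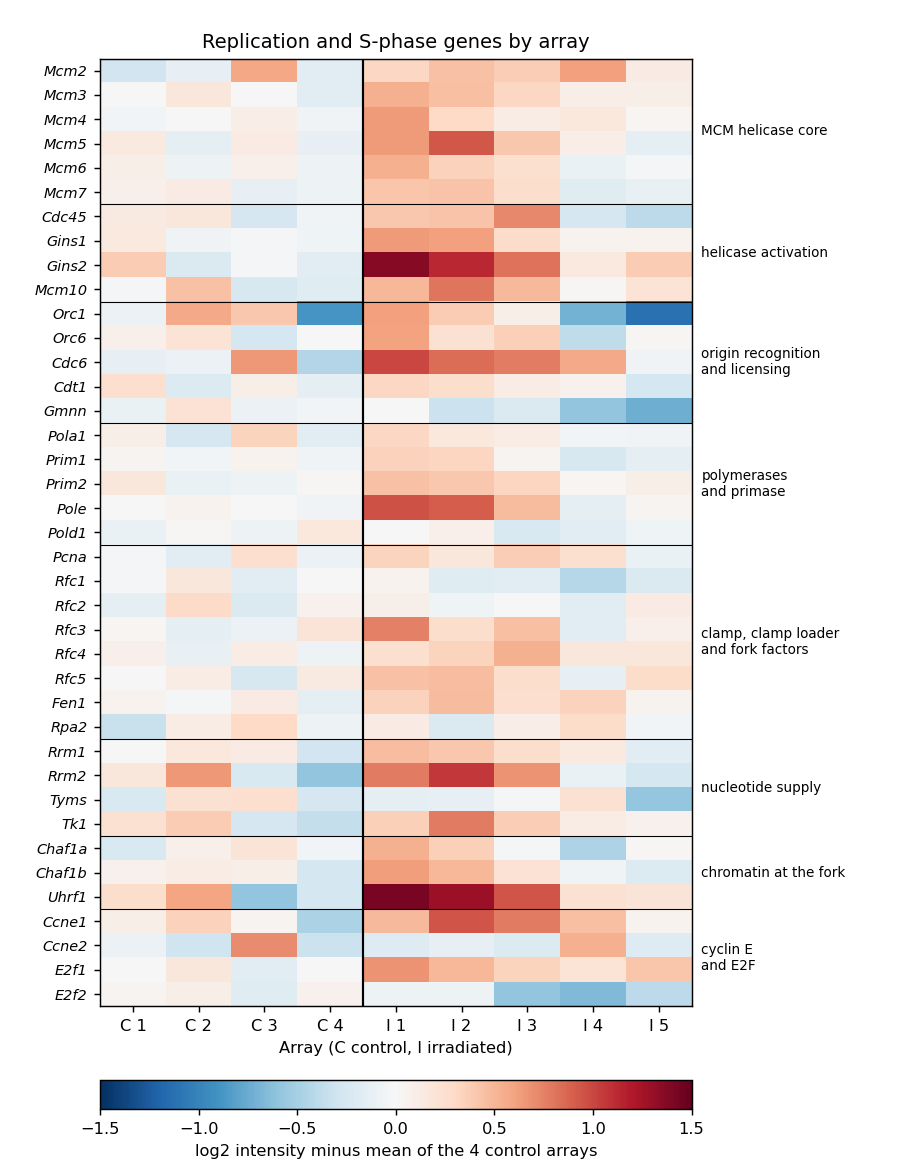
Log2 intensity of each of the 39 members (rows, grouped by role) on each array (columns, C control and I irradiated, numbered as in the labels), minus the mean of that gene over the 4 control arrays; red is higher and blue lower. The darkest red cells are Uhrf1 and Gins2 on irradiated arrays 1 and 2, and among the irradiated arrays most blue cells lie on arrays 4 and 5.

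E2f1 and Rfc4 were the only members whose control and irradiated arrays did not overlap, and in both the irradiated arrays were the higher ones; 5.14% of all genes had groups that did not overlap, 3.39% with the irradiated arrays higher and 1.75% with them lower. E2f1 encodes a transcription factor that switches on S-phase genes once it is freed from the retinoblastoma protein. Its log2 intensity was 9.92, 10.10, 9.77 and 9.92 on control arrays 1 to 4 and 10.60, 10.42, 10.26, 10.13 and 10.34 on irradiated arrays 1 to 5. The lowest irradiated array was just above the highest control array. The log2 difference was 0.42 (SE 0.12), with a limma adjusted p of 0.222; in the authors' normalized table it was 0.17. Rfc4 encodes a small subunit of the clamp loader, which opens PCNA and sets it on DNA. It was at 11.07, 10.88, 11.10 and 10.92 on the control arrays and at 11.23, 11.33, 11.52, 11.16 and 11.16 on the irradiated arrays. The difference of 0.29 (SE 0.10) had a limma adjusted p of 0.346, and in the authors' table this difference was 0.17 too. Its exact two-sided permutation p, unadjusted, was 0.00794, the smallest that 4 arrays against 5 allow. A value at or near this floor follows from groups that do not overlap, for which Rfc4 was named, so it adds no support.

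Among the other regulators at the entry to S phase, directions were mixed. Ccne1, the cyclin E that activates Cdk2 at the G1/S boundary, was at 9.71, 9.97, 9.66 and 9.14 on the control arrays and at 10.11, 10.56, 10.40, 10.07 and 9.67 on the irradiated arrays. All irradiated arrays but array 5 lay above all control arrays, and the difference was 0.54 (SE 0.21, limma adjusted p 0.392). E2f2, a further activating member of the E2F family, went the other way: its control arrays were at 13.11, 13.15, 12.88 and 13.13 and its irradiated arrays at 12.99, 12.99, 12.48, 12.40 and 12.67. Control 3 was below irradiated arrays 1 and 2, the other 3 control arrays were above every irradiated array, and the difference was -0.36 (SE 0.14, limma adjusted p 0.393). Ccne2, the second cyclin E gene, was well above background on 1 of 4 control and 1 of 5 irradiated arrays, so its level has no firm comparison here.

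Promoter sequence bears on these genes because E2F factors bind near the start sites of many of them. Windows from 250 bases before to 50 bases after a start site were taken from RefSeq (GRCm38.p6) and matched by symbol for 31 of the 39 members; Mcm4, Rfc2, Pole, Prim2, Gins1, Gins2, Gmnn and Ccne2 had no window. An E2F-like core (TTTGGCG or TTTCCCG or TTTCGCG or TTTGCCG, on either strand, overlapping matches merged) was present in a window of 15 of 31 members (48.4%) and of 7.65% of 27025 genes. Some windows belong to a start site inside the gene, E2f1's among them, 466 bases from the gene's outermost start, so the window of E2f1 is not described. Over windows within 100 bases of the outermost start, a core was present in 10 of 25 members (40.0%) and in 6.50% of 22802 genes. The letters CCAAT, on either strand, were present in 16 of these 25 members (64.0%), against 38.7% of genes, and the letters TTTGAA or TTCGAA of the cell cycle homology region, which marks many genes of mitosis, in 4 (16.0%), against 20.3%. A match is a description of letters, not a bound site. Uhrf1 had 2 windows, 1 at the outermost start without a core and 1 further inside with a core. Fen1 also had 2, with a core at the outermost start and none in the window 472 bases further inside. The 200 bases before the outermost start are shown for Rfc4, whose groups did not overlap, for Mcm6 and Fen1, a helicase and a nuclease gene with a core, and for Chaf1a, a chromatin assembly gene with a core and a difference of 0.08 (SE 0.20); each is written 5′ to 3′ on the gene's own strand, with E2F-like cores in capitals, at chr16:23127731-23127930 (Rfc4, minus strand), chr1:128359706-128359905 (Mcm6, minus strand), chr19:10204394-10204593 (Fen1, minus strand) and chr17:56040216-56040415 (Chaf1a, plus strand).
Rfc4: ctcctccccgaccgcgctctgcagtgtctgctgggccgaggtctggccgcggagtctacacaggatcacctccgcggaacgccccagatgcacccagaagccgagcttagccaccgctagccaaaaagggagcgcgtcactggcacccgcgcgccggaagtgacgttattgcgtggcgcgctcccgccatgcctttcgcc
Mcm6: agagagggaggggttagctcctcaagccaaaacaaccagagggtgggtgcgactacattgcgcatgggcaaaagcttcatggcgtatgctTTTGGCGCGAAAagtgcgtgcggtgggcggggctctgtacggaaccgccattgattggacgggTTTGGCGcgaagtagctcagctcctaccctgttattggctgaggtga
Fen1: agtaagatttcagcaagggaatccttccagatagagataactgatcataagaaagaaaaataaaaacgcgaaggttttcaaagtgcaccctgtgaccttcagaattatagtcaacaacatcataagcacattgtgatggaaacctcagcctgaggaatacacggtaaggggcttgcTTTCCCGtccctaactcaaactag
Chaf1a: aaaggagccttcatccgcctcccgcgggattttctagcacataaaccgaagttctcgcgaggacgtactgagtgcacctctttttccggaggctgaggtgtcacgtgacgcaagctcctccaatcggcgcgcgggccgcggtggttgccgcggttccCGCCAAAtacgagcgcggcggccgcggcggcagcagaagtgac
In Mcm6 a run of 2 overlapping cores on opposite strands, TTTGGCGCGAAA, began 110 bases before the start site and a single core, TTTGGCG, 47 bases before it. Fen1 held TTTCCCG at 24 bases and Chaf1a held CGCCAAA, a core read on the other strand, at 43 bases. None of these letters was present in the Rfc4 sequence.

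Of the 5 factors that load the helicase or limit its loading, 3 were higher and 2 lower in mean, and none passed the test. Orc1, the largest subunit of the origin recognition complex, was well above background on 2 of 4 control and 2 of 5 irradiated arrays, and Orc6, its smallest subunit, differed by 0.16 (SE 0.18). Cdc6, the ATPase that recruits the helicase to the origin, was at 6.65, 6.69, 7.43 and 6.34 on the control arrays and at 7.78, 7.61, 7.54, 7.35 and 6.72 on the irradiated arrays. Irradiated arrays 1, 2 and 3 were above all control arrays, control 3 was higher than irradiated arrays 4 and 5, and the difference was 0.62 (SE 0.28, limma adjusted p 0.493). Cdt1, which acts with Cdc6, differed by 0.10 (SE 0.14). Gmnn encodes geminin, the protein that binds Cdt1 and blocks a second round of loading; it lies outside the rule for named genes and was chosen after its values were seen, as the most negative difference of the list. It was at 9.72, 10.04, 9.73 and 9.78 on the control arrays and at 9.82, 9.49, 9.60, 9.23 and 9.08 on the irradiated arrays. Every irradiated array but array 1 was below all control arrays, and the difference was -0.37 (SE 0.16, limma adjusted p 0.487).

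**Figure D2:**
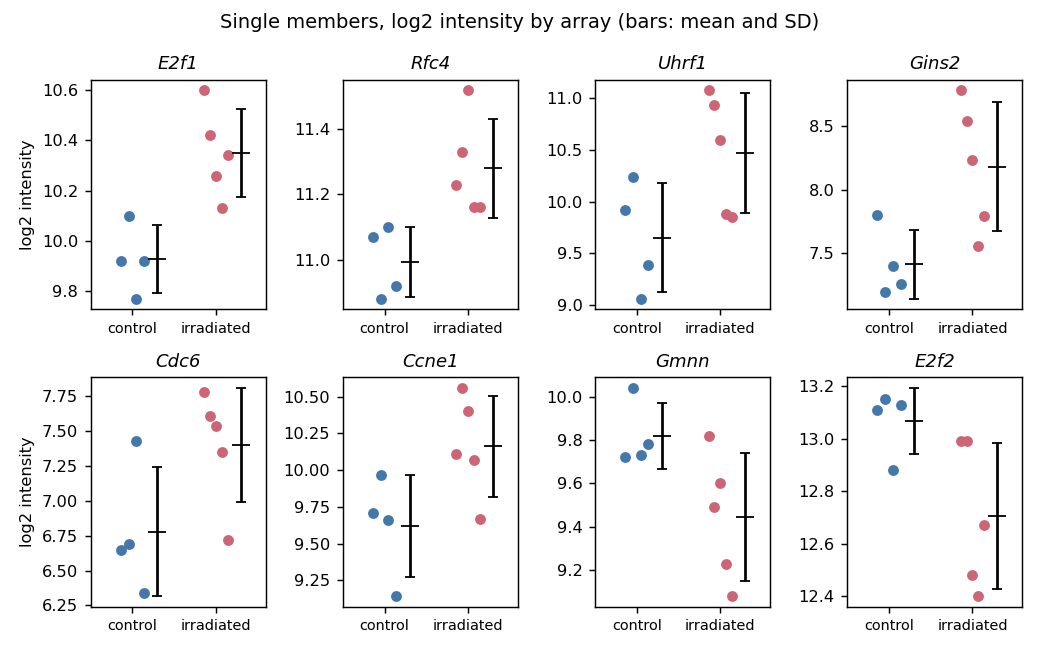
Log2 intensity (vertical axis) of 8 members on the 4 control arrays (blue) and the 5 irradiated arrays (red), with arrays in label order within a group and bars at the mean with SD. E2f1 and Rfc4 do not overlap between groups, Uhrf1, Gins2 and Cdc6 have 3 irradiated arrays above all control arrays, and Gmnn and E2f2 are lower in mean on the irradiated arrays.

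All 6 subunits of the MCM helicase core were higher in mean, with a median difference of 0.27 and a range from 0.16 (Mcm7) to 0.39 (Mcm5). Mcm5 was at 10.80, 10.51, 10.78 and 10.53 on the control arrays and at 11.29, 11.59, 11.06, 10.76 and 10.51 on the irradiated arrays. Mcm6 was at 13.39, 13.23, 13.38 and 13.23, then at 13.84, 13.65, 13.55, 13.21 and 13.29. In both genes irradiated arrays 1, 2 and 3 were above all control arrays and irradiated arrays 4 and 5 were within or below them. The differences were 0.39 (SE 0.20) for Mcm5 and 0.20 (SE 0.13) for Mcm6, with limma adjusted p of 0.596 and 0.692; without irradiated 2 Mcm5 was at 0.25, and without irradiated 1 Mcm6 was at 0.12. Mcm2 did not share that order: its highest irradiated array was array 4, at 11.05, and control 3 stood at 11.01.

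The 4 genes that activate the helicase had the highest median difference of the 8 role groups, 0.36, and all were higher in mean. Gins2 and Gins1 encode subunits of the GINS ring, which joins Cdc45 and MCM into the moving helicase. Gins2 was at 7.80, 7.20, 7.40 and 7.26 on the control arrays and at 8.78, 8.54, 8.23, 7.56 and 7.79 on the irradiated arrays. The difference was 0.76 (SE 0.26), a fold of 1.70, with a limma adjusted p of 0.326 and an exact two-sided permutation p of 0.0476. Irradiated arrays 4 and 5 lay between control 1 and the other 3 control arrays. Gins1 differed by 0.33 (SE 0.16), Mcm10, which helps to start unwinding, by 0.40 (SE 0.19), and Cdc45 by 0.18 (SE 0.26).

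For genes of DNA synthesis at the fork, the median difference was 0.10 for the 5 polymerase and primase genes and 0.23 for the 8 genes of the clamp, its loader and other fork factors. Pole, the catalytic subunit of the leading-strand polymerase, was at 9.41, 9.45, 9.39 and 9.35 on the control arrays and at 10.35, 10.31, 9.87, 9.26 and 9.44 on the irradiated arrays. Its SD was 0.04 among control arrays, the smallest of the list, and 0.49 among irradiated arrays, and the difference was 0.44 (SE 0.23, limma adjusted p 0.579). Pold1, the catalytic subunit of the lagging-strand polymerase, differed by -0.08 (SE 0.09), with a 95% interval from -0.28 to 0.13. Fen1, the flap nuclease that trims Okazaki fragments, was at 11.81, 11.74, 11.88 and 11.61 on the control arrays and at 12.10, 12.23, 12.01, 12.11 and 11.81 on the irradiated arrays. Only irradiated 5 overlapped the controls, and the difference was 0.29 (SE 0.10, limma adjusted p 0.325). Pcna itself differed by 0.20 (SE 0.12), and the loader subunits Rfc1, Rfc2, Rfc3 and Rfc5 by -0.19 (SE 0.11), -0.00 (SE 0.11), 0.28 (SE 0.19) and 0.27 (SE 0.14). Of the 5 irradiated arrays, 3 were above all control arrays in Rfc3 and 4 in Rfc5.

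Among the genes of deoxynucleotide supply and of chromatin at the fork, Rrm2 and Uhrf1 had the widest spreads. Rrm2, the regulatory subunit of ribonucleotide reductase that is made in S phase, was at 10.92, 11.39, 10.52 and 10.15 on the control arrays and at 11.52, 11.81, 11.42, 10.64 and 10.48 on the irradiated arrays. The difference was 0.43 (SE 0.32), its interval ran from -0.29 to 1.15, and the catalytic subunit Rrm1 differed by 0.22 (SE 0.15). Thymidine kinase Tk1 differed by 0.33 (SE 0.19) and thymidylate synthase Tyms by -0.13 (SE 0.20). Uhrf1 reads hemimethylated DNA and brings the maintenance methyltransferase to the new strand. With all arrays and the brightest probes, it had the largest difference of the list. It was at 9.92, 10.24, 9.06 and 9.39 on the control arrays and at 11.08, 10.94, 10.60, 9.88 and 9.85 on the irradiated arrays. Irradiated arrays 1, 2 and 3 were above all control arrays, while arrays 4 and 5 were below controls 1 and 2. The difference was 0.82 (SE 0.32), a fold of 1.76, with a limma adjusted p of 0.407. Without control 3 it was 0.62, below Cdc6 at 0.84 and Gins2 at 0.76. With the mean over a gene's probes it was 0.57, below Gins2 at 0.76 and Cdc6 at 0.70. Without irradiated 1 and control 3 together it was 0.47, below Cdc6 at 0.75. Chaf1b, a subunit of the assembly factor that places new histones, differed by 0.22 (SE 0.18).

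The members did not share one level among the irradiated arrays. Of the 39 members, 28, 27 and 24 were above all 4 control arrays on irradiated arrays 1, 2 and 3, which is 71.8%, 69.2% and 61.5%, against 28.0%, 20.9% and 25.5% of all genes on the same arrays. On irradiated arrays 4 and 5 there were 6 and 3 such members, 15.4% and 7.69%, against 19.2% and 20.9% of all genes. Below all 4 control arrays there were 0, 2, 3, 11 and 9 members on irradiated arrays 1 to 5, against 18.2%, 21.8%, 18.5%, 23.6% and 19.5% of all genes; on arrays 4 and 5 the members' share was 28.2% and 23.1%. The median deviation of the members from the control mean was 0.45, 0.40, 0.27, 0.03 and -0.01 on irradiated arrays 1 to 5, and between -0.08 and 0.09 on the control arrays. In 36 of 39 members the lowest irradiated array was array 4 or 5, a count that has no share over all genes beside it here. With 5 irradiated arrays of unstated dose, region and time, these are values of single arrays and were not compared as groups.

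**Figure D3:**
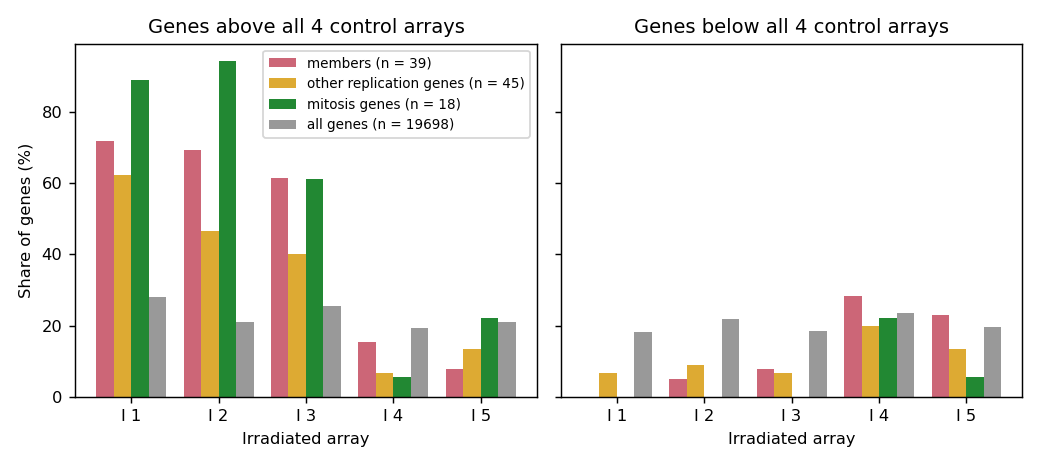
Share of genes (vertical axis, percent) above all 4 control arrays (left) and below all 4 control arrays (right) on each irradiated array, for the members, the other replication genes, the mitosis genes and all genes. On irradiated arrays 1, 2 and 3 the members reach 61.5% to 71.8% above all controls, and on arrays 4 and 5 they are at 15.4% and 7.69%, below the share of all genes.

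Marker genes of lung cell types were looked at beside this pattern, since the tissue is a mixture. The median deviation of 5 endothelial markers on irradiated arrays 1 to 5 was 0.23, 0.25, 0.01, -0.46 and -0.43, and that of 4 neutrophil markers was 0.17, -0.78, 0.16, -1.23 and -1.43; 4 erythroid markers were at 0.11, -0.20, -0.23, -1.29 and -0.98. Among the irradiated arrays these lists, like the members, were lowest on arrays 4 and 5; on the control arrays they ran from -0.21 to 0.40, from -0.65 to 0.82 and from -1.18 to 0.37. T cell markers were at -0.60, 0.48, 0.41, -0.07 and -0.37 on irradiated arrays 1 to 5. B and plasma cell markers were at -0.67, -0.43, -0.20, -0.20 and -0.22. Both lists were lowest on irradiated 1, and 5 of 6 B and plasma cell markers were lower in mean, with a median difference of -0.27. Club and ciliated markers were lower in 3 of 4, and their summed intensity did not overlap between groups, at 921879 to 972302 on control and 792579 to 885523 on irradiated arrays. The summed intensity of the type I alveolar markers, given below, did not overlap either, with the irradiated arrays higher. These sums have no share over all genes beside them. Macrophage markers were at 0.15, 0.58, 0.70, 0.70 and 0.44, with 4 of 5 higher in mean and a median difference of 0.60; the median difference was 0.32 for type I alveolar markers, 4 of 4 higher, and 0.30 for fibroblast markers, 4 of 5 higher. Summed linear intensity of the endothelial markers ranged from 88879 to 142451 on control and from 81888 to 129050 on irradiated arrays, that of the neutrophil markers from 257074 to 439971 and from 203170 to 337809, that of the erythroid markers from 168823 to 469183 and from 175295 to 500257, that of the macrophage markers from 142592 to 340755 and from 199596 to 360609, that of the type I markers from 179407 to 194721 and from 198175 to 240969, and that of the fibroblast markers from 148253 to 211978 and from 155708 to 274154. No gene of the 12 marker lists was called. On the irradiated arrays 2 of 5 endothelial, 0 of 4 neutrophil and 0 of 4 erythroid markers were higher in mean, and all markers of these 6 lists were well above background on all arrays except 2 of the erythroid ones. Their part in the result was not tested. Muscle set 2 arrays apart. Cardiac markers had a median deviation of -5.53 on irradiated 1, with Myh6 at 7.33 there and at 15.87 to 16.98 on the other arrays, and skeletal muscle markers were at 3.39 on control 3. Without irradiated 1 the members' median difference was 0.16, without control 3 it was 0.25, and without both, an alternative chosen after the data were seen, it was 0.18; 0 members were called each time. Over all genes 1.09% were called higher and 0.569% lower without irradiated 1, 0.0254% were called without control 3 and 0.558% without both.

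Arrays also fell into pairs by where they lay on the scan and by their local background: control 1 with irradiated 2, control 2 with irradiated 3, control 3 with irradiated 4 and control 4 with irradiated 5, with irradiated 1 alone. The labels do not name these pairs. Across all probes, the deviations of paired arrays from their group means correlated at 0.285, 0.201, 0.331 and 0.455. Within the pairs, the members' median difference was 0.35, 0.15, -0.02 and 0.07, against medians of -0.02, 0.02, -0.01 and 0.01 over all genes. On the irradiated array of each pair, 35, 29, 18 and 26 of 39 members were higher. These were 89.7%, 74.4%, 46.2% and 66.7%, against 46.3%, 53.7%, 48.2% and 51.2% of all genes. In the pair of control 3 and irradiated 4 the members were no higher than all genes. A total of 15 members were higher in all 4 pairs and 3 in none, counts that have no share over all genes beside them here. With the pair as a random block, limma called 6 members, Gins2, Ccne1, E2f1 and Fen1 higher and Gmnn and E2f2 lower, where 5.65% of all genes were called higher and 3.80% lower; with the pair as a fixed block, which leaves out irradiated 1, it called 0 members, where 2.26% of all genes were called higher and 1.56% lower, and the median difference was 0.16.

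Other genes of replication, kept in a separate list of 45, had a median difference of 0.12, with 33 higher and 12 lower in mean, 0 called by limma, where 0.416% of all genes were called, and 1 (2.22%) at an unadjusted p under 0.05, where 12.3% of all genes were. Ticrr, which helps Cdc45 onto the helicase, had the largest positive difference at 0.66 (SE 0.30, limma adjusted p 0.511), and Mcmbp, which binds MCM subunits off the DNA, the most negative at -0.21 (SE 0.12, limma adjusted p 0.653). Rrm2b, the p53-controlled subunit of ribonucleotide reductase used outside S phase, differed by -0.03 (SE 0.21).

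Regulators of the G1/S passage included the genes that did pass the test. Of 27 found, 20 were higher and 7 lower in mean, with a median difference of 0.20, and limma called 2, both higher, where 0.264% of all genes were called higher. Cdkn1a, the p21 inhibitor of cyclin-dependent kinases and a p53 target, was at 12.25, 11.89, 10.90 and 11.74 on the control arrays and at 13.89, 14.29, 13.61, 12.98 and 13.21 on the irradiated arrays. It rose by 1.90 (SE 0.31), a fold of 3.73, with a limma adjusted p of 0.0440. Ccnd1, the cyclin D that starts phosphorylation of the retinoblastoma protein, was at 14.12, 14.38, 14.45 and 14.40, then at 15.33, 15.57, 15.22, 15.06 and 14.99. It rose by 0.89 (SE 0.13), with a limma adjusted p of 0.0312. In both genes all 5 irradiated arrays, arrays 4 and 5 included, were above all control arrays, while 6 and 3 of the 39 members were above all control arrays on arrays 4 and 5. Both calls sat close to the threshold: they held without irradiated 1 and were lost without any other single array, with limma adjusted p from 0.0408 to 0.145 for Cdkn1a and from 0.0260 to 0.101 for Ccnd1. With the scan pair as a fixed block Cdkn1a kept its call (1.83, adjusted p 0.0218) and Ccnd1 lost it (0.87, adjusted p 0.0606). The differences themselves moved little, from 1.64 to 2.09 for Cdkn1a and from 0.81 to 0.96 for Ccnd1 when single arrays were left out. With the mean over a gene's probes Cdkn1a was at 2.53 and Ccnd1 at 0.89. In the authors' table they were at 1.55 and 0.77. Cdkn1c, the p57 inhibitor, had the most negative difference of the list, -0.52 (SE 0.23, limma adjusted p 0.493); it was lower within all 4 scan pairs and was called with the pair as a fixed block (-0.65, adjusted p 0.0383) and as a random block (-0.60, adjusted p 0.0309), while without control 1 it was -0.32 (adjusted p 0.673). Cdkn2a, which encodes p16 and p19Arf and was chosen after its values were seen, was at 8.0, 8.67, 8.23 and 8.09 on the control arrays and at 8.48, 9.0, 10.63, 10.35 and 10.29 on the irradiated arrays. Its highest irradiated arrays were 3, 4 and 5, another order than that of the replication genes, and the difference was 1.5 (SE 0.43, limma adjusted p 0.225). Cdkn2a was called with the pair as a fixed block (adjusted p 0.0346), as a random block (adjusted p 0.00938) and without irradiated 1 (1.82, adjusted p 0.0408). It was called under no other alternative. Of all genes, 3.82% were called with the fixed block, 9.45% with the random block and 1.65% without irradiated 1. These shares also stand beside the block calls of Cdkn1a and Cdkn1c above.

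**Figure D4:**
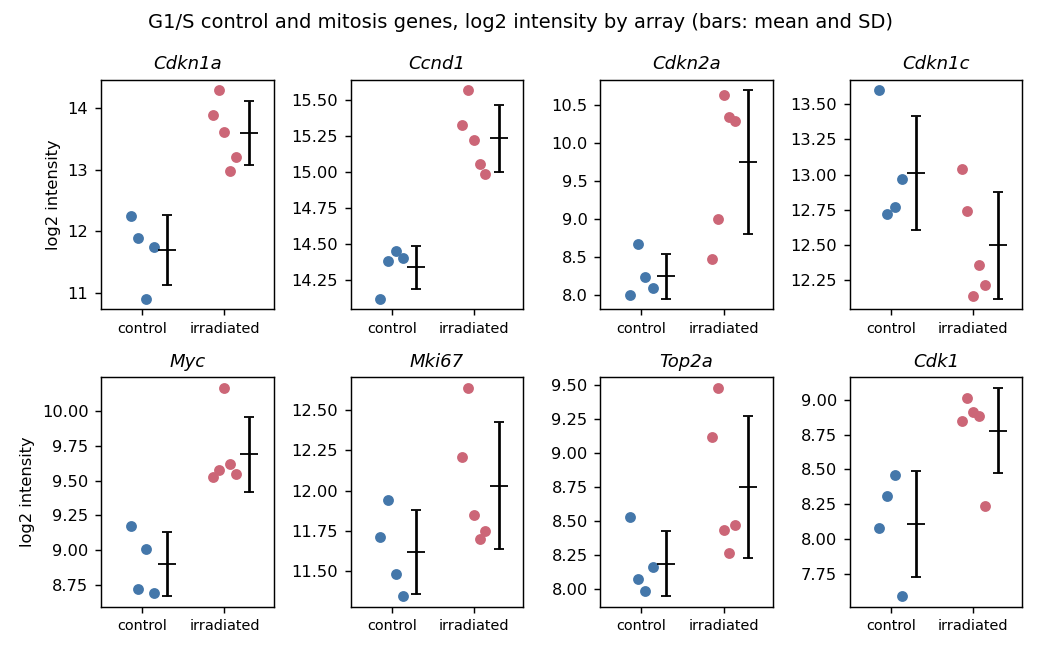
Log2 intensity (vertical axis) of 5 G1/S control genes and 3 mitosis genes on the 4 control arrays (blue) and the 5 irradiated arrays (red), in label order within a group, with bars at the mean and SD. Cdkn1a, Ccnd1 and Myc do not overlap between groups, and in Mki67 and Top2a irradiated arrays 1 and 2 are the highest arrays.

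Genes of mitosis, which follow S phase in the cycle, had a median difference of 0.48 over 18 genes, with 17 higher in mean, 0 called by limma, where 0.416% of all genes were called, and 6 (33.3%) at an unadjusted p under 0.05, all higher, where 7.37% of all genes were higher at that p. Mki67, the common proliferation marker, was at 11.71, 11.94, 11.48 and 11.34 on the control arrays and at 12.21, 12.64, 11.85, 11.70 and 11.75 on the irradiated arrays. Top2a, the topoisomerase that untangles sister chromatids, was at 8.53, 8.07, 7.98 and 8.16, then at 9.12, 9.48, 8.43, 8.26 and 8.47. In both, irradiated arrays 1 and 2 were above all control arrays and the other 3 were not, and the differences were 0.42 (SE 0.21) and 0.57 (SE 0.26), with limma adjusted p of 0.557 and 0.516. Over the whole list, the median deviation on irradiated arrays 1 to 5 was 0.75, 0.99, 0.43, -0.03 and 0.17, so array 4 was the lowest of the irradiated arrays. On control arrays 1 to 4 it was 0.25, 0.21, -0.16 and -0.18, a range that holds the values of irradiated arrays 4 and 5. Ttk, a kinase of the spindle checkpoint, and Aurkb, a kinase of chromosome segregation, were too dim to compare, well above background on 1 and 3 of 9 arrays.

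**Figure D5:**
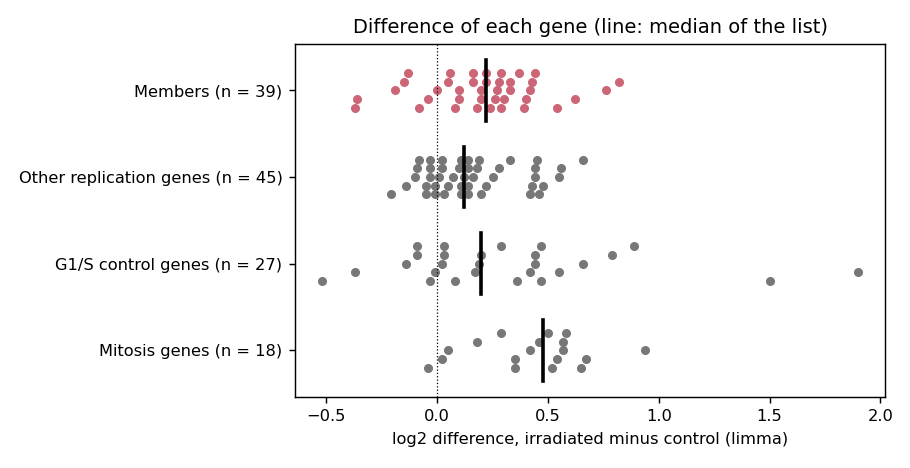
Log2 difference of irradiated minus control arrays from limma (horizontal axis) for each gene (points) of the members and of 3 other lists, with the median of each list as a line. The members centre on 0.22 and the mitosis genes on 0.48, and Cdkn1a at 1.90 lies farthest to the right among the G1/S control genes.

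Across the series, 72.8% to 89.1% of spots per array were well above background, with 0 saturated. The lung origin of the RNA was plain on every array: Sftpc, the surfactant gene of type II alveolar cells, was at 19.36 to 19.43, and Scgb1a1, of club cells, at 19.08 to 19.19.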

How the data were processed

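RNA of mouse lung was labelled with Cy5 and hybridised to Agilent whole genome 44K arrays, 1 pool per array. For each array the authors deposited Feature Extraction output with intensity values that were corrected for background but not normalized between arrays, with other columns for positions and detection marks; they also deposited a table of normalized intensity, used as an alternative after its rows were matched to the spots by order. All columns of that table were mapped to arrays. Control spots and outlier spots were left out. Probes over 1.4 times local background on at least 4 of 9 arrays were kept (39302 of 39429), values were quantile normalized on the log2 scale and spots of a probe averaged; 88 probes had a missing value on at least 1 array. Symbols came from RefSeq accessions (GRCm38.p6) for 66.1% of probes, and 1 brightest probe stood for a gene.

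Groups were compared with limma 3.58.1 (run under R 4.3.3), without covariates; the prior variance followed intensity and p-values were adjusted by Benjamini and Hochberg's method across the probes kept. A call is an adjusted p under 0.05. The scripts were tested on simulated data. Members and lists were chosen with earlier results of these data known, so no list was tested as a whole. Named genes were the members called or not overlapping, the largest difference and the brightest probe of each of 8 roles, the extremes of SD, the called and most extreme genes of the other lists, and Mki67, Top2a, Cdkn1a and Rrm2b. Values given for other genes complete the account of a role.

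Alternatives were normexp correction (offset 50) of the median signal, scaling to the 75th percentile, the background filter on all arrays or none, the authors' table, leaving out each array, a replicate block, the scan pair as a fixed or random block, no intensity trend, array weights, the mean over a gene's probes and an adjusted p under 0.01; leaving out irradiated 1 and control 3 together was added after the data were seen.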

Additional observations from a re-analysis of the deposited data

Results flagged for a closer look

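In 5 of 98 groups of arrays examined (5.1%), 1 array stood apart from the rest of its group by its gap to the nearest value relative to the group's range; chance gives about 5%. Gins1 was at 9.15 on control 1 and at 8.94 to 8.98 on the other control arrays. E2f2 was at 12.88 on control 3, against 13.11 to 13.15 on the others. Chaf1b was at 10.64 on control 4, against 10.97 to 11.02. Ccne2, which is dim, was at 2.96 on irradiated 4 and at 2.22 to 2.30 on the other irradiated arrays. Aurkb, also dim, was at 1.88 on control 4, against 3.80 to 4.11 on the other control arrays.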

How the results depend on the processing

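Members called stayed at 0 under each alternative except the scan pair as a random block, where 6 were called, and their median difference stayed between 0.15 (the authors' table) and 0.30 (without irradiated 5, or with the replicate block). For the other replication genes the median difference was 0.12 with all arrays. It was 0.06 in the authors' table, 0.07 without irradiated 1 and control 3 together, and 0.16 without irradiated 5. Over all genes, the share called was 1.65% without irradiated 1 and 0.0254% to 0.127% without any other single array, so single calls here rest on few arrays. The number of members that did not overlap, 2 with all arrays, was 1 with normexp (4.89% of all genes), 0 in the authors' table (1.67%), 5 with the replicate block (6.82%) and 9 without irradiated 1 and control 3 together (12.4%); it was 2 to 7 when each array was left out, with 5 without control 1 (8.22%), 4 without control 2 (8.21%), 7 without control 3 (7.45%) and 5 without irradiated 5 (6.82%). Fewer arrays make a gap between groups more likely by construction. The number of G1/S control genes called was 2 with all arrays, where 0.416% of all genes were called. It was 0 with the replicate block, without an intensity trend, at an adjusted p under 0.01, and without irradiated 1 and control 3. It was 8 with the random block, where 9.45% of all genes were called. With the fixed scan pair block it was 3 (Cdkn1a, Cdkn1c and Cdkn2a, not Ccnd1), where 3.82% of all genes were called. When each array was left out it was 0 to 3. Mitosis genes called were 2 of 18 (Cdk1 and Aurka) with the random block, where 9.45% of all genes were called, and 0 with the fixed block (limma adjusted p 0.0536 and 0.0502). Replicate numbers do not pair these arrays: deviations of arrays with the same number correlated at 0.062, -0.017, -0.048 and -0.167, so the replicate block stands here only as a check. Of 630 values of 30 named genes under the alternatives, 571 kept direction and side of the threshold, 23 lost and 7 gained a call, and 29 turned direction, in 6 genes. Aurkb turned to 0.11 with normexp, 0.09 after scaling to the 75th percentile, 0.08 under the filter on all arrays, 0.24 in the authors' table, 0.33 with the replicate block, 0.33 with the fixed scan pair block, 0.18 with the random block, 0.13 with array weights and 0.45 without irradiated 1 and control 3, and ran from -0.66 to 0.33 when each array was left out, with the turned values from 0.08 to 0.33 (0.19 without control 1). Ttk was at -0.33 in the authors' table. Orc1 was at 0.10 with the replicate block and from -0.44 to 0.10 with each array left out. Rrm2b was at 0.04 with the replicate block, 0.10 without irradiated 1 and control 3, and from -0.15 to 0.15 with each array left out. Orc6 was at -0.03 without irradiated 1 and control 3. Rfc2, at -0.00 with all arrays, was at 0.02 with array weights and from -0.07 to 0.09 with each array left out (turned values 0.02 to 0.09). Leaving out 1 array also moved Rrm2 (0.43) to 0.23 without control 4, 0.27 without irradiated 2 and 0.64 without control 2, Rrm1 (0.22) to 0.12 without control 4, Chaf1b (0.22) to 0.13 without control 4 and 0.12 without irradiated 1, Orc6 (0.16) to 0.08 without control 3, 0.06 without irradiated 1 and 0.30 without irradiated 4, Pold1 (-0.08) to -0.02 without control 4 and -0.04 without irradiated 3, Mki67 (0.42) to 0.26 without irradiated 2 and Mcmbp (-0.21) to -0.13 without irradiated 3. Among members outside the named set, differences with each array left out ran from 0.05 to 0.33 for Cdc45, 0.03 to 0.19 for Cdt1, 0.21 to 0.46 for Tk1, -0.22 to -0.01 for Tyms, 0.16 to 0.39 for Rfc3, 0.10 to 0.25 for Mcm7, 0.27 to 0.56 for Mcm2 and -0.03 to 0.22 for Chaf1a, which turned. The authors' table also gave values over 1.5 times apart from those above: Mcm5 0.19, Mcm6 0.12, Cdc6 0.39, Orc6 0.10, Fen1 0.18, Rrm2 0.23, Chaf1b 0.12, Pold1 -0.04, Orc1 -0.27, Ticrr 0.37, Mki67 0.27 and Rrm2b -0.08. The cause was not tested. With normexp, Ticrr was at 0.39 and the dim Ttk at 0.13. With the mean over a gene's probes, Mcmbp was at -0.09.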

Other observations

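A second probe was present for 6 members, and in each its difference had the sign of the brightest probe. The second probe gave 0.44 (SE 0.17) for Rfc4, 0.77 (SE 0.33) for Cdc6, 0.42 (SE 0.28) for Ccne1 and 0.31 (SE 0.25) for Chaf1b, each well above background on all 9 arrays. For Uhrf1, the second probe, of another RefSeq transcript, gave 0.31 (SE 0.33), below the 0.82 of the brightest probe and well above background on 8 arrays; the difference between these probes was not tested. The second Pole probe was well above background on 2 arrays only and gave 0.38 (SE 0.49).

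Other cell cycle genes, chosen after their values were seen, also had irradiated arrays that did not overlap the control arrays. Over all genes, 3.39% did not overlap with the irradiated arrays higher and 1.75% with them lower. The genes were picked with this trait known, so it adds no support. Myc was at 8.69 to 9.17 on the control arrays and at 9.53 to 10.17 on the irradiated arrays, a difference of 0.79 (SE 0.17, limma adjusted p 0.0999). Cdc25a, the phosphatase that activates Cdk2, differed by 0.36 (SE 0.10, limma adjusted p 0.222), and Cdkn1b, the p27 inhibitor, by -0.37 (SE 0.10, limma adjusted p 0.175), with all 5 irradiated arrays below all control arrays. With the scan pair as a random block, where 9.45% of all genes were called, all of these were called; with the pair as a fixed block none was (limma adjusted p 0.0846 for Myc, 0.0636 for Cdc25a and 0.0527 for Cdkn1b).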
